A study of Mus musculus with 24 samples.

Results

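Dppa2, Dppa3, Dppa4 and Dppa5a are the mouse genes of the developmental pluripotency associated name series that have a row under these symbols in both count tables of the study, and they were chosen by those symbols. They are 4 of the 35022 genes counted after removal of the MEK inhibitor PD03 and 4 of the 48709 genes counted after removal of the GSK3 inhibitor CHIRON. RNA was sequenced from E14 mouse embryonic stem cells (mESCs, labelled 129m wt) on fibronectin-coated soft or stiff StemBond hydrogels. All cells were first kept for 12 h in medium with LIF and both inhibitors, at 1 µM PD03 and 3 µM CHIRON, which gave the 0 h control. One inhibitor was then taken away. Cells after PD03 removal were thus in CHIRON and LIF, and cells after CHIRON removal in PD03 and LIF. RNA was collected 2 h and 12 h later. No group was kept in both inhibitors for these times, so an effect of removal and one of time in culture cannot be told apart. Each of the 6 groups of an experiment held 2 libraries, except stiff hydrogels at 2 h after CHIRON removal, where 1 of the 2 libraries was left out because it held only 171333 counts. The libraries used held 16222196 to 26442153 counts after PD03 removal and 19393787 to 31111260 after CHIRON removal. All cells were of 1 line, and nothing in the labels says whether the paired libraries of a group came from separate cultures, so that the p-values below measure only the spread between these libraries.

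The protein products of these genes share a name but not a function. Dppa2 and Dppa4 are DNA-binding SAP domain proteins that work as a pair, hold the promoters of silent developmental genes in a state that can later be activated, and switch on Dux and the genes of the cleavage-stage embryo. Dppa3, also called Stella or PGC7, marks naive mESCs and primordial germ cells and keeps Uhrf1, and with it the maintenance of DNA methylation, in check. Dppa5a, also called Esg1, is a KH domain protein that binds RNA and is abundant in pluripotent cells. Removal of PD03 lets ERK signalling return, and removal of CHIRON lets GSK3 act again on beta-catenin.

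In GENCODE annotation of build GRCm38, Dppa4 (chr16:48283733-48294237) and Dppa2 (chr16:48303908-48319723) lie one after the other on the plus strand, with 9670 bases between them. Dppa3 lies at chr6:122626410-122630272 on the plus strand and Dppa5a at chr9:78367052-78368177 on the minus strand. Their exons cover 1662, 2447, 892 and 619 bases, in the order Dppa4, Dppa2, Dppa3 and Dppa5a. The cells carried the markers of their label. All 8 mESC markers examined, among them Pou5f1, Sox2 and Nanog, reached 10 counts or more in a library, and their summed level was 3820 to 5170 CPM, that is, counts scaled to library size. Of other cell types, 8 primitive endoderm markers summed to 239 to 400.0 CPM, 6 trophoblast markers to 59.0 to 81.3 CPM, 6 mesoderm and primitive streak markers to 14.1 to 57.2 CPM, 4 neuroectoderm markers to 7.12 to 31.4 CPM and 6 fibroblast markers to 1.65 to 6.78 CPM. Some of these also reached 10 counts in a library, so that mark alone does not set mESCs apart. In the PD03 and CHIRON experiments they were 7 and 6 primitive endoderm markers and 4 and 5 trophoblast markers. In either experiment, 4 mesoderm and primitive streak, 2 neuroectoderm and 3 fibroblast markers did so.

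Each of the 4 genes has near-identical copies elsewhere in the genome, and these decide how far a count can be read as the gene itself. Of the 50-base windows along the transcripts, 29.1% in Dppa2, 16.5% in Dppa3, 35.1% in Dppa4 and 38.6% in Dppa5a occurred without a single difference in a transcript of another gene. The closest non-coding copies were the processed pseudogenes Gm9788 for Dppa2 (99.34% identity over 906 bases), Dppa3-ps for Dppa3 (98.23% over 451 bases), Gm14058 for Dppa4 (98.91% over 735 bases) and Gm6083 for Dppa5a (96.92% over 357 bases). The coding stretches of 90 bases in which each gene and this copy differ the most are shown to make visible how little a short read has to tell them apart, with the differing bases in capitals. They are read 5′ to 3′ in the sense of the gene from the GENCODE M21 transcripts (GRCm38), and the first 3 of the genes are joined across an intron. The Dppa2 stretch lies at chr16:48310538-48311662 on the plus strand and the Gm9788 stretch at chr19:41459844-41459933 on the plus strand, and they differ in 4 bases.
Dppa2: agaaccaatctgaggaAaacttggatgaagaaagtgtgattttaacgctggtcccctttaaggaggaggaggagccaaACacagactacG
Gm9788: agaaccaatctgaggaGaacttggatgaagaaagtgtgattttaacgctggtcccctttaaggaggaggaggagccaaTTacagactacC
The Dppa3 stretch lies at chr6:122626599-122628654 on the plus strand and the Dppa3-ps stretch at chrX:37625934-37626023 on the minus strand, and they differ in 3 bases.
Dppa3: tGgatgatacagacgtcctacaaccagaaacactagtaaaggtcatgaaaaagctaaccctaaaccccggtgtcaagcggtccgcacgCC
Dppa3-ps: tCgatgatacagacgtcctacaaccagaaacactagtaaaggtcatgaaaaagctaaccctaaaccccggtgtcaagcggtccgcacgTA
The Dppa4 stretch lies at chr16:48283839-48287964 on the plus strand and the Gm14058 stretch at chr2:122215244-122215333 on the minus strand, and they differ in 3 bases.
Dppa4: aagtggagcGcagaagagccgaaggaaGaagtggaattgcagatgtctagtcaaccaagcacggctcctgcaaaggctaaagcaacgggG
Gm14058: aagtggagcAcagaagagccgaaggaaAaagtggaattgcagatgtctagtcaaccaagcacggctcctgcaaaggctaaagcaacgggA
The Dppa5a stretch lies within 1 exon at chr9:78367738-78367827 on the minus strand and the Gm6083 stretch at chr5:29538344-29538433 on the plus strand, and they differ in 5 bases.
Dppa5a: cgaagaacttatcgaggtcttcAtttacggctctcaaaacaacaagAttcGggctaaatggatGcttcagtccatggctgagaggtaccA
Gm6083: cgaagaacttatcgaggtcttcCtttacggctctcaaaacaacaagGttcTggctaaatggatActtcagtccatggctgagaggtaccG

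The copies carried counts in both tables, but to a different extent. For every 100 counts on Dppa3, the pseudogenes listed with at least 90% identity over 100 bases or more held 79.8 to 106.2 counts in the libraries of PD03 removal and 4.7 to 23.5 in those of CHIRON removal. For Dppa4 the copies held 57.8 to 74.2 counts per 100 in the first table and 7.9 to 13.0 in the second. For Dppa2 they held 50.1 to 57.4 and 25.4 to 32.9, and for Dppa5a 33.2 to 37.3 and 8.0 to 16.9. Not all of these pseudogenes had a row in the tables. Rows were present for 4 of 6 copies of Dppa2, 2 of 3 of Dppa3, 2 of 2 of Dppa4 and 6 of 8 of Dppa5a, in either table. For all 4 genes the ranges of the 2 tables did not overlap, so the share of counts on copies was higher in every library of PD03 removal than in any library of CHIRON removal. How reads with more than 1 alignment were treated is not given in the sources used here, and whether it differed between the tables was not tested. Levels are therefore set side by side across the experiments without a test, while the changes with time are measured within each table. Near-identical stretches of Dppa5a also occur in 2 protein-coding transcripts, 1 of them in Pigp (95.92% identity over 417 bases) and the other in Gm10112 (90.22% over 358 bases). Pigp (chr16:94358763-94371842) spans Gm15310 (chr16:94358941-94359312) on the same strand. Gm15310 is already among the non-coding copies, so the Pigp stretch need not be a further copy.

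**Figure D1:**
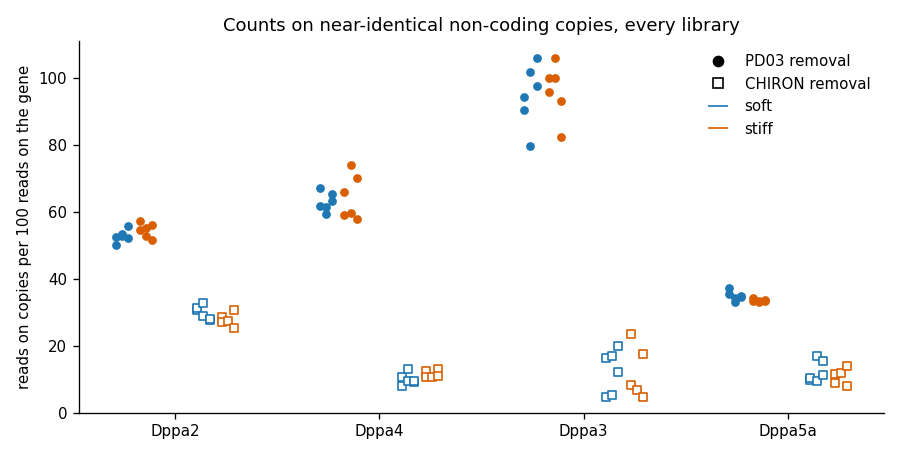
Counts on near-identical non-coding copies for every 100 counts on the gene (vertical axis), 1 point for each of the 23 libraries, with the 4 genes along the horizontal axis. Filled circles are libraries of PD03 removal and open squares those of CHIRON removal, and colour gives the substrate; for each gene all circles lie above all squares, with the widest gap for Dppa3.

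Per length, the genes stood in the same order in all 23 libraries, with Dppa5a above Dppa2, Dppa2 above Dppa4 and Dppa4 above Dppa3. In CPM per kilobase of exon, Dppa5a lay between 575.9 and 879.6 in the PD03 experiment (12 libraries) and between 627.6 and 952.1 in the CHIRON experiment (11 libraries). Averaged over libraries, only 29 of the 13422 protein-coding genes tested after PD03 removal, and 38 of the 14615 tested after CHIRON removal, were higher per length. Dppa2 ranged from 51.9 to 67.9 and from 62.0 to 99.7 CPM per kilobase, which placed it above 93.0% and 95.8% of the genes tested. Dppa4 ranged from 38.2 to 57.7 after PD03 removal and from 22.0 to 32.1 after CHIRON removal. Dppa3 was the lowest, at 4.16 to 17.2 and 2.07 to 3.60 CPM per kilobase, the second range resting on only 33 to 74 counts per library. Dppa2 and Dppa4 were the neighbours in this order that lay closest, and across the libraries of PD03 removal their ranges overlapped.

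A period of 12 h without PD03 split the group. Dppa4 and Dppa2, the paired chromatin factors, rose, while Dppa3 and Dppa5a fell, on both substrates. All 4 genes passed an adjusted p of 0.05 on soft and on stiff hydrogels by the quasi-likelihood test of edgeR with adjustment after Benjamini and Hochberg, beside 29.4% of the 13422 genes tested on soft and 38.4% on stiff. By direction, 14.1% of all genes rose and 15.3% fell on soft hydrogels, and 18.5% rose and 19.9% fell on stiff hydrogels. With a background of that size, calls for 4 of 4 genes say little about the group, and the sizes of the changes are what follows. The separations of libraries given below are descriptions only. The share of all genes with such a separation was not counted.

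Dppa3 showed the largest change of the 4. Before removal its level was 15 and 14.64 CPM in the 2 libraries on soft hydrogels and 13.77 and 12.46 CPM on stiff hydrogels. At 12 h it was 5.567 and 5.664 CPM on soft and 4.895 and 3.709 CPM on stiff hydrogels. All 4 libraries at 12 h were thus below all 4 at 0 h, with no overlap on either substrate. The fitted change was 0.379-fold on soft hydrogels (log2 fold change −1.40 ± 0.16 SE, adjusted p = 6.2e-08 by edgeR's quasi-likelihood test) and 0.332-fold on stiff hydrogels (−1.59 ± 0.17, adjusted p = 1.7e-08).

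Dppa4 rose the most. It stood at 63.63 and 63.5 CPM on soft and at 68.0 and 66.35 CPM on stiff hydrogels at 0 h. At 12 h it had reached 81.99 and 86.32 CPM on soft and 95.95 and 93.97 CPM on stiff hydrogels, so that every 12 h library was above every 0 h library. The increase was 1.32-fold on soft (log2 fold change 0.41 ± 0.06 SE, adjusted p = 1.5e-05, edgeR) and 1.42-fold on stiff hydrogels (0.50 ± 0.06, adjusted p = 2.9e-07).

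Dppa2, its partner, moved less. Its 0 h libraries held 133.1 and 127.1 CPM on soft and 133.7 and 133.4 CPM on stiff hydrogels, and its 12 h libraries 139.8 and 148.1 CPM on soft and 158.3 and 162.2 CPM on stiff hydrogels. The 12 h values lay above the 0 h values on both substrates, on soft hydrogels by a narrow margin. The increase was 1.20-fold on stiff hydrogels (log2 fold change 0.26 ± 0.05 SE, adjusted p = 0.00023, edgeR) and 1.11-fold on soft hydrogels (0.15 ± 0.05, adjusted p = 0.037). The call on soft hydrogels was lost in DESeq2 (adjusted p = 0.069) and when either soft 0 h replicate 2 or soft 12 h replicate 2 was left out (log2 fold changes 0.12 and 0.11).

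Dppa5a fell from a high level. It was at 448.9 and 484.1 CPM on soft and at 462.8 and 512.9 CPM on stiff hydrogels at 0 h, and at 367.3 and 396.1 CPM on soft and 391.4 and 356.5 CPM on stiff hydrogels at 12 h. The values at the 2 times did not overlap. The decrease was to 0.818-fold on soft (log2 fold change −0.29 ± 0.05 SE, adjusted p = 0.00016, edgeR) and to 0.766-fold on stiff hydrogels (−0.38 ± 0.05, adjusted p = 2.0e-06).

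Adding the copies counted apart from the genes could alter these responses little, because they held a similar share in every library of PD03 removal. When the counts of the non-coding copies were added to those of the gene, an alternative chosen after seeing the data, the log2 fold changes at 12 h on soft and stiff hydrogels were −1.33 and −1.68 for Dppa3, 0.40 and 0.51 for Dppa4, 0.17 and 0.24 for Dppa2 and −0.31 and −0.39 for Dppa5a. All 8 calls held in this fit, which does not reach copies without a row or any reads that were left uncounted. Over the same time, the summed level of 6 mesoderm and primitive streak markers went from 21.1 to 24.4 CPM at 0 h to 49.0 to 57.2 CPM at 12 h, and that of the 8 mESC markers from 4860 to 5100 CPM to 4370 to 4520 CPM. None of these markers was at 0 in every library, and their part in the result was not tested. In bulk RNA, fewer cells with a transcript and less of it per cell cannot be told apart.

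**Figure D2:**
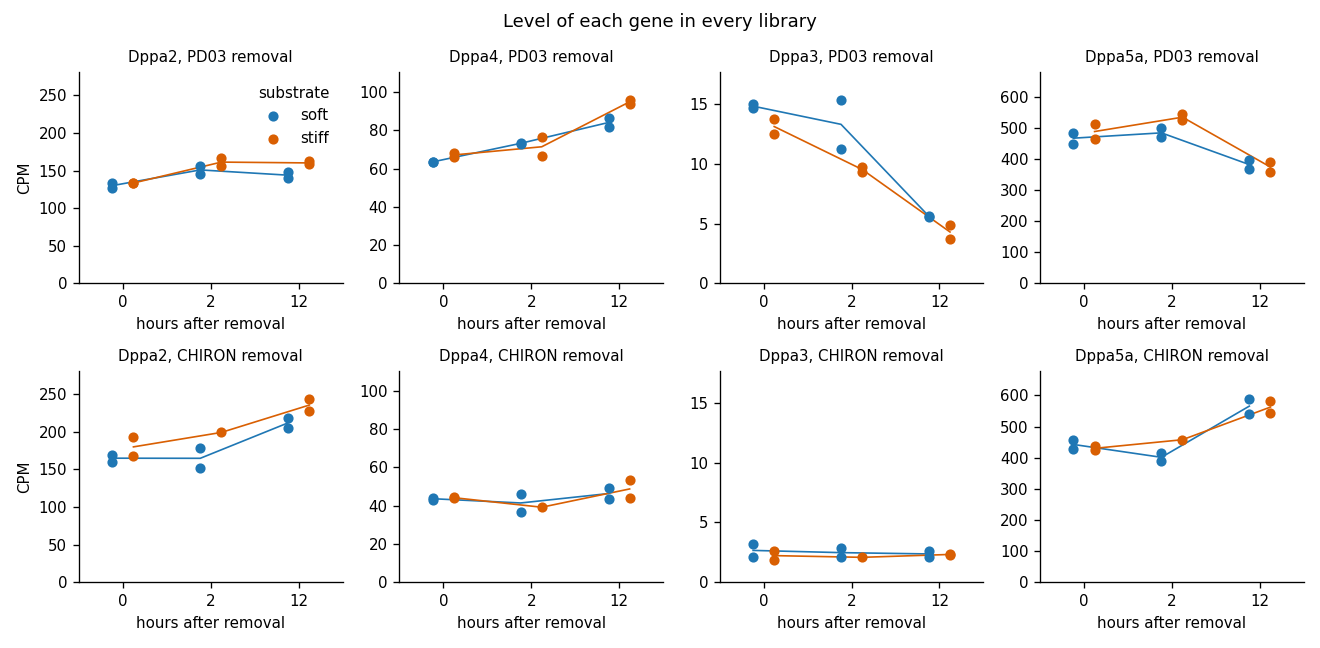
Level of each gene in CPM, on an axis from 0, at 0, 2 and 12 h after removal of PD03 (top) or CHIRON (bottom), with 1 point per library, lines through the group means and colour for the substrate. Dppa3 falls and Dppa4 rises in the top row, and Dppa5a falls in the top row and rises in the bottom row.

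At 2 h after PD03 removal, Dppa3, Dppa4 and Dppa5a had changed less than they had by 12 h. For Dppa2 the early log2 fold changes, 0.21 (soft) and 0.27 (stiff), were no lower than the later ones, 0.15 and 0.26. The uncalled early fall of Dppa3 on stiff hydrogels (−0.45) exceeded that of Dppa5a by 12 h (−0.38). An unadjusted p below 0.05 (edgeR) was reached by 2 of the 4 genes on soft and 3 on stiff hydrogels. Among all 13422 genes tested, 1587 and 1775 did so. Dppa2 was called on both substrates, as 1 of 4 genes each, beside 1.96% of all genes on soft and 2.73% on stiff hydrogels. Its level was 156.8 and 145.1 CPM on soft and 166.2 and 156.5 CPM on stiff hydrogels, in every library above the 0 h libraries of the same substrate. The change was 1.16-fold on soft (log2 fold change 0.21 ± 0.05 SE, adjusted p = 0.025, edgeR) and 1.21-fold on stiff hydrogels (0.27 ± 0.05, adjusted p = 0.0014). On soft hydrogels the call was lost in DESeq2 (adjusted p = 0.056), when all genes of the table were tested (adjusted p = 0.059) and without soft 0 h replicate 1, soft 0 h replicate 2 or soft 2 h replicate 1 (adjusted p = 0.072, 0.26 and 0.36).

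The other 3 genes did not pass the test at 2 h. Dppa3 was at 11.26 and 15.34 CPM on soft hydrogels, where the libraries lay on either side of the 0 h values, and at 9.714 and 9.347 CPM on stiff hydrogels, below both 0 h libraries. Its log2 fold change was −0.16 ± 0.14 SE on soft and −0.45 ± 0.14 on stiff hydrogels (adjusted p = 0.72 and 0.106, edgeR). With the copies added it was −0.42 ± 0.10 on stiff hydrogels with an adjusted p of 0.022, so that there the call turned on the counts of Dppa3-ps. Dppa4 had 72.82 and 73.69 CPM on soft hydrogels, above both 0 h libraries, and 76.41 and 66.51 CPM on stiff hydrogels, on either side of the 0 h value of replicate 1. Dppa5a had 469.0 and 498.2 CPM on soft hydrogels, overlapping the 0 h libraries, and 544.4 and 523.4 CPM on stiff hydrogels, above them. The log2 fold changes of Dppa4 were 0.20 and 0.09 and those of Dppa5a 0.05 and 0.13, on soft and stiff hydrogels in this order.

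Removal of CHIRON gave another pattern at 12 h. Dppa2 and Dppa5a rose on both substrates, and Dppa3 and Dppa4 were not called. These were 2 of 4 genes on each substrate, beside 17.8% of the 14615 genes tested on soft and 16.8% on stiff hydrogels, or 9.18% and 8.46% for genes that rose and 8.63% and 8.33% for genes that fell.

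Dppa5a had 455.9 and 429.0 CPM on soft and 436.0 and 424.0 CPM on stiff hydrogels at 0 h. At 12 h after CHIRON removal it had 589.3 and 541.8 CPM on soft and 581.4 and 543.5 CPM on stiff hydrogels, all above every 0 h library. The rise was 1.28-fold on soft (log2 fold change 0.35 ± 0.08 SE, adjusted p = 0.0043, edgeR) and 1.31-fold on stiff hydrogels (0.39 ± 0.08, adjusted p = 0.0022).

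Dppa2 went from 169.8 and 160.1 CPM to 218.6 and 205.3 CPM on soft hydrogels and from 167.2 and 192.8 CPM to 227.1 and 244.0 CPM on stiff hydrogels. Again the 12 h libraries were all above the 0 h libraries. The rise was 1.29-fold on soft (log2 fold change 0.36 ± 0.09 SE, adjusted p = 0.0093, edgeR) and 1.31-fold on stiff hydrogels (0.39 ± 0.09, adjusted p = 0.0059).

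These calls rested on few libraries. On soft hydrogels neither gene was called, 0 of 4 instead of 2 of 4, without soft 0 h replicate 2 (adjusted p = 0.107 for Dppa2 and 0.077 for Dppa5a) or without soft 12 h replicate 1 (0.070 and 0.051), a library in which 85.31% of counts were on protein-coding genes against 78.02% in its partner. On stiff hydrogels Dppa2 lost its call without stiff 0 h replicate 1 (adjusted p = 0.076) or stiff 12 h replicate 2 (0.081), which left 1 of 4 genes. Dppa5a stayed past the threshold on stiff hydrogels whichever of its 4 libraries was left out. With the discarded library put back, 0 of 4 genes were called on either substrate (adjusted p = 0.9998 and 1.0 for both, edgeR). The estimates hardly moved, at 0.37 and 0.40 for Dppa2 and 0.36 and 0.39 for Dppa5a on soft and stiff hydrogels. Their SE grew to 0.94 for Dppa2 and 1.1 for Dppa5a.

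Dppa4 stayed near its starting level, with 44.29, 43.07, 44.6 and 43.85 CPM at 0 h (soft, then stiff) and 43.54, 49.22, 44.22 and 53.35 CPM at 12 h. Values of the 2 times overlapped on both substrates. Its log2 fold changes were 0.08 ± 0.12 SE and 0.14 ± 0.12, and an interval of 2 SE on either side reached from −0.15 to 0.31 on soft and from −0.09 to 0.37 on stiff hydrogels. Dppa3 had 2.116, 3.209, 1.845 and 2.608 CPM at 0 h and 2.623, 2.112, 2.36 and 2.292 CPM at 12 h, also overlapping. At this depth its log2 fold changes of −0.16 ± 0.31 and 0.06 ± 0.32 left room from −0.77 to 0.46 on soft and from −0.58 to 0.71 on stiff hydrogels. Across these times the 8 mESC markers summed to 3860 to 4060 CPM at 0 h and 4620 to 4880 CPM at 12 h, 4 neuroectoderm markers to 13.9 to 17.7 and 27.6 to 31.4 CPM, 8 primitive endoderm markers to 304 to 332 and 387 to 400.0 CPM, and 6 mesoderm and primitive streak markers to 23 to 25.4 and 14.1 to 16.8 CPM, and their part in the result was not tested.

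At 2 h after CHIRON removal none of the 4 genes was called on soft or stiff hydrogels by edgeR or DESeq2, and none had an unadjusted p below 0.05 in edgeR (0.226% and 0.103% of all genes called, and 9.09% and 6.97% at an unadjusted p below 0.05). Dppa2 had 178.0 and 151.6 CPM on soft and 199.2 CPM in the 1 stiff library, Dppa5a 388.5, 413.9 and 457.7 CPM, Dppa4 46.35, 36.56 and 39.23 CPM and Dppa3 2.863, 2.091 and 2.084 CPM. The spread of the lone stiff library was taken from the other groups.

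**Figure D3:**
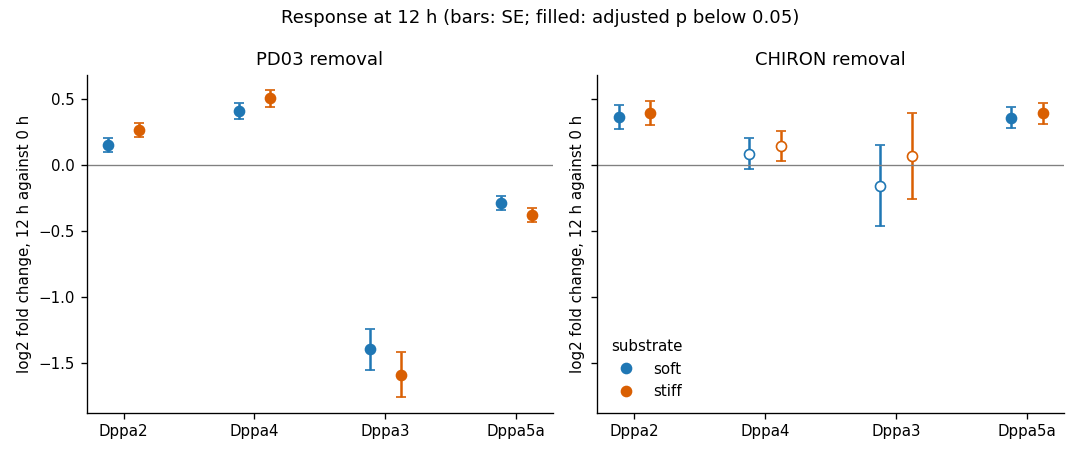
Log2 fold change at 12 h against 0 h for each gene after removal of PD03 (left) or CHIRON (right), with bars of 1 SE, colour for the substrate and filled points for an adjusted p below 0.05. After PD03 removal all points are filled, Dppa3 lying at −1.40 and −1.59, while after CHIRON removal Dppa2 and Dppa5a alone are filled, between 0.35 and 0.39.

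The difference between the 2 removals was tested in 1 fit over all 23 libraries, each 12 h group against the 0 h group of its own experiment. On soft hydrogels 2 of 4 genes differed in response, beside 20.9% of the 14752 genes tested, and on stiff hydrogels 3 of 4, beside 23.5%. Dppa5a, which fell after PD03 removal and rose after CHIRON removal, differed by −0.65 ± 0.10 SE on the log2 scale on soft and by −0.77 ± 0.10 on stiff hydrogels (PD03 minus CHIRON, adjusted p = 2.0e-05 and 1.4e-06, edgeR). Dppa3 differed by −1.25 ± 0.31 and −1.66 ± 0.34 (adjusted p = 0.0046 and 0.00056). Without soft 12 h replicate 1 of CHIRON removal the soft difference of Dppa3 was −1.04 with an adjusted p of 0.070, which left 1 of 4 genes.

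For Dppa4 the response to PD03 removal exceeded that to CHIRON removal by 0.32 ± 0.13 on soft and 0.36 ± 0.13 on stiff hydrogels (adjusted p = 0.086 and 0.048, edgeR). The call on stiff hydrogels was lost in DESeq2 (adjusted p = 0.052), with all genes tested (0.103), and without either 0 h or either 12 h stiff library of PD03 removal, either 0 h stiff library of CHIRON removal or stiff 12 h replicate 1 of CHIRON removal (0.073 to 0.24). With the discarded library put back, the calls of Dppa4 and Dppa5a were lost (adjusted p = 0.31 and 0.78 on stiff, and 0.86 for Dppa5a on soft hydrogels). Their estimates were then 0.36, −0.77 and −0.65 in this order, with SE of 0.19, 0.95 and 0.95. Dppa3 alone was called on either substrate. The call of Dppa4 on soft hydrogels was gained without soft 12 h replicate 2 of CHIRON removal (0.045), with no filter on low counts (0.042) and with only the groups compared (0.042). For Dppa2, which rose after both removals, the difference was −0.22 ± 0.11 on soft and −0.12 ± 0.11 on stiff hydrogels (adjusted p = 0.16 and 0.46), with intervals of 2 SE from −0.44 to −0.005 and from −0.34 to 0.09. With the copies added, the differences were −1.25 and −1.70 for Dppa3, −0.71 and −0.78 for Dppa5a, 0.32 and 0.37 for Dppa4 and −0.16 and −0.15 for Dppa2, and the same 5 differences were called.

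Substrate stiffness changed none of the 4 genes by this test. After PD03 removal 0 of 4 genes were called between soft and stiff hydrogels at 0, 2 or 12 h, beside 0.0298%, 0.134% and 0.767% of all genes. DESeq2 called 0 as well, with no adjusted p for Dppa3 at 2 h. At an unadjusted p below 0.05 there were 0 of the 4 genes at 0 h, 2 at 2 h (Dppa3 and Dppa5a) and 2 at 12 h (Dppa2 and Dppa4), beside 7.21%, 8.55% and 9.64% of all genes. The log2 fold changes of Dppa3 (soft against stiff) at 0, 2 and 12 h were 0.18 ± 0.13, 0.47 ± 0.15 and 0.37 ± 0.20 (SE), with both soft libraries above both stiff ones at each time. With 2 SE on either side the difference at 12 h lay between −0.03 and 0.77. Those of Dppa2 were −0.04 ± 0.05, −0.10 ± 0.05 and −0.15 ± 0.05, and its soft and stiff libraries were apart at 0 h and 12 h and overlapped at 2 h. Dppa4 differed by −0.17 ± 0.06 at 12 h, with 81.99 and 86.32 CPM on soft below 95.95 and 93.97 CPM on stiff hydrogels. Dppa5a differed by −0.14 ± 0.05 at 2 h and by 0.03 ± 0.05 at 12 h. The adjusted p of these values lay between 0.23 and 0.92 (edgeR). With 2 libraries in a group, soft and stiff libraries often come apart without a difference. The share of all genes for which they did was not counted.

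Nor did the responses differ in size between the substrates past the threshold. The 12 h response on soft minus that on stiff hydrogels was 0.19 ± 0.24 for Dppa3, −0.10 ± 0.09 for Dppa4, −0.12 ± 0.07 for Dppa2 and 0.09 ± 0.08 for Dppa5a on the log2 scale, and 0 of 4 genes were called at 2 h and at 12 h by edgeR and DESeq2, with 0 at an unadjusted p below 0.05 in edgeR. Of all genes 0.00745% were called at 2 h and 0.0% at 12 h, and 4.51% and 6.7% had an unadjusted p below 0.05, with 1 and 0 genes called in DESeq2. The intervals of 2 SE allowed differences from −0.29 to 0.67 for Dppa3 and from −0.27 to 0.03 for Dppa2.

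In the CHIRON experiment 0 of 4 genes were called between the substrates at any time or in their responses, and 0.0% of all genes were, in edgeR as in DESeq2. At an unadjusted p below 0.05 stood 3.48%, 5.73% and 3.22% of all genes between the substrates at 0, 2 and 12 h, and 3.09% and 2.84% for the responses at 2 and 12 h. The 1 value with an unadjusted p below 0.05 was that of Dppa2 at 2 h, −0.27 ± 0.11, where the stiff group is a single library. Dppa2 was at −0.13 ± 0.09 at 0 h and −0.15 ± 0.09 at 12 h. Its estimates were thus below 0 in all 6 comparisons of soft with stiff hydrogels over both experiments, none past the threshold. This run of signs was picked after the values were seen, and how many of all genes share it was not counted. Dppa3 was at 0.26 ± 0.31, 0.24 ± 0.39 and 0.04 ± 0.32, intervals too wide to set against those of the PD03 experiment.

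**Figure D4:**
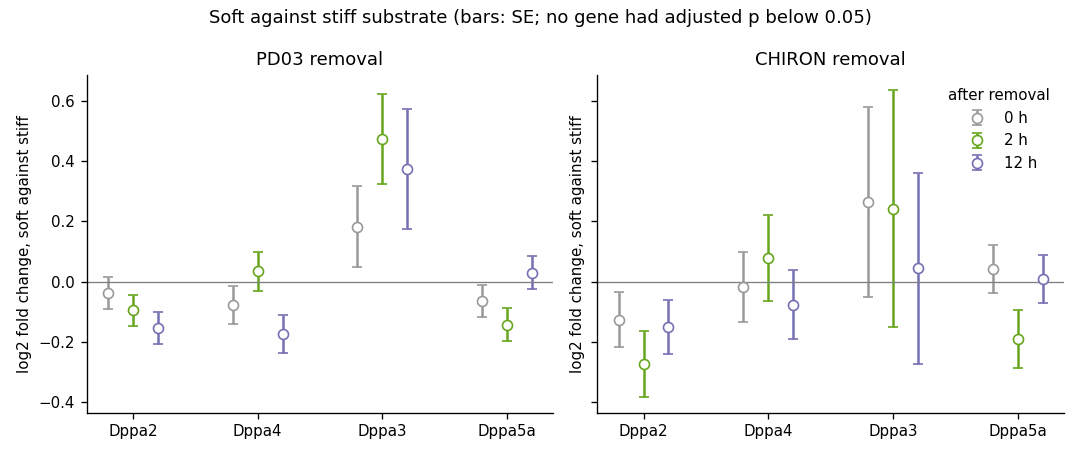
Log2 fold change of soft against stiff hydrogels for each gene, at 0, 2 and 12 h after removal of PD03 (left) or CHIRON (right), with bars of 1 SE. All points are open because no adjusted p was below 0.05, and the largest value, 0.47 for Dppa3 at 2 h after PD03 removal, comes with an SE of 0.15.

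The 2 experiments began from the same medium, and the levels at 0 h are set side by side without a test. At that time, over both substrates, Dppa3 was at 12.5 to 15 CPM in the PD03 experiment and at 1.84 to 3.21 CPM in the CHIRON experiment. Dppa4 was at 63.5 to 68.0 and 43.1 to 44.6 CPM, Dppa2 at 127 to 134 and 160 to 193 CPM, and Dppa5a at 449 to 513 and 424 to 456 CPM, ranges that overlap for Dppa5a alone. With the copies added, Dppa3 was at 24.9 to 28.6 and 2.21 to 3.73 CPM and Dppa4 at 103 to 110 and 46.4 to 50.2 CPM. Dppa2 was then at 191 to 210 and 210 to 245 CPM, so that its ranges met, and Dppa5a at 608 to 685 and 473 to 500 CPM, so that its ranges came apart. The experiments were counted in separate tables, so a difference between cultures and one between the tables cannot be told apart.

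Dppa2 and Dppa4 were compared within each library because their products act together. In the libraries of PD03 removal the log2 ratio of Dppa2 to Dppa4 per length was 0.506 and 0.443 on soft and 0.417 and 0.449 on stiff hydrogels at 0 h. It was 0.548, 0.419, 0.563 and 0.677 at 2 h and 0.212, 0.221, 0.164 and 0.23 at 12 h. The pair was closest to equal at 12 h, where all 4 libraries lay below those of the earlier times. After CHIRON removal the ratio was 1.336 to 1.578 at 0 h, 1.383 to 1.786 at 2 h and 1.502 to 1.802 at 12 h, above every library of the PD03 experiment. Over libraries the log2 levels of the pair correlated with Pearson's r = 0.632 (12 libraries) and 0.587 (11 libraries), values that describe groups of a shared time course. The strongest relations between members after PD03 removal were r = −0.905 for Dppa3 with Dppa4 and 0.79 for Dppa3 with Dppa5a, and after CHIRON removal 0.815 for Dppa2 with Dppa5a.

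Dppa2 and Dppa4 are known to activate a set of cleavage-stage genes, of which 18 were listed. After PD03 removal 14 of them were tested, and at 12 h 11 fell, 0 rose and 3 were not called (Tcstv1, Tdpoz3 and Tdpoz4) on soft hydrogels, and 12 fell, 0 rose and 2 were not called (Tcstv3 and Tdpoz4) on stiff hydrogels, where 15.3% and 19.9% of all genes fell. The median log2 fold change was −0.695 on soft and −0.856 on stiff hydrogels, beside −0.001 over all genes tested. Neither Dux nor Duxf3 was among the 14 genes tested after PD03 removal. Zscan4f, a telomere-associated factor that marks the 2-cell-like state, was at −0.67 ± 0.08 and −0.88 ± 0.08, Zscan4c at −0.66 ± 0.08 and −0.83 ± 0.08, and Usp17le at −1.004 ± 0.14 and −1.11 ± 0.15 (SE, soft and stiff). After CHIRON removal 17 rows for 15 gene symbols were tested. Of these, 3 fell on soft (Usp17le, Usp17la and Zscan4e) and 1 on stiff hydrogels (Usp17la), beside 8.63% and 8.33% of all genes. The medians were −0.132 and −0.065 beside −0.014 and −0.009 over all genes tested. Duxf3, tested only after CHIRON removal, was at 0.53 ± 0.49 and 0.72 ± 0.54 and not called. The Zscan4 and Usp17 genes are families of near-identical copies, so counts of single members are uncertain.

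Of the KH domain genes, some of them neighbours of Dppa5a, 4 were tested after PD03 removal, and at 12 h 3 fell on soft and 4 on stiff hydrogels. Ooep, a component of the maternal complex of the egg, was at −0.20 ± 0.06 and −0.35 ± 0.06 and Khdc3, its partner in that complex, at −0.13 ± 0.11 and −0.34 ± 0.11 (log2 fold change, SE), while Khdc1a went from 18 to 26 counts per library at 0 h to 0 to 4 at 12 h and Khdc1c from 14 to 31 to 0 to 4. The list's median of −1.072 on soft and −1.658 on stiff hydrogels is carried by these 2 low genes. Of all genes 15.3% and 19.9% fell. After CHIRON removal 0 of 3 were called, beside 17.8% and 16.8% of all genes, with medians of 0.228 and 0.156. The low genes still had the same direction there. Khdc1a went from 2 to 5 counts per library at 0 h to 0 to 1 at 12 h, below the filter. Khdc1c went from 2 to 15 to 0 to 2 (log2 fold changes −2.49 ± 1.47 and −2.55 ± 1.05).

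Of 12 genes of primordial germ cells, 5 fell on soft (Nanog, Kit, Dazl, Prdm14 and Ifitm1) and 6 on stiff hydrogels 12 h after PD03 removal and 0 rose, beside 15.3% and 19.9% of all genes that fell, with medians of −0.208 and −0.374 beside −0.001 over all genes. Nanog, a core pluripotency factor, was at −0.38 ± 0.04 and −0.55 ± 0.04 and Kit, the receptor for stem cell factor, at −0.43 ± 0.05 and −0.59 ± 0.05, and Prdm14, a repressor that guards naive pluripotency, at −0.49 ± 0.07 and −0.61 ± 0.07. After CHIRON removal 5 rose (Nanog, Ifitm1, Ifitm3, Dnd1 and Prdm14) and 2 fell (Kit and Nanos3) on soft, and 5 rose (with Pou5f1 in place of Prdm14) and 1 fell (Kit) on stiff hydrogels, with medians of 0.277 and 0.255, while 9.18% and 8.46% of all genes rose and 8.63% and 8.33% fell. There Nanog was at 0.63 ± 0.09 and 0.76 ± 0.09, and the interferon-induced membrane protein gene Ifitm3 at 0.78 ± 0.12 and 0.85 ± 0.12. After PD03 removal 7 of the 12 were not called on soft and 6 on stiff hydrogels, among them Prdm1, Nanos3, Dnd1, Ddx4 and Ifitm3 on both. Nanog and Prdm14 are also on the list of naive pluripotency genes, and Nanog on that of the genes beside Dppa3, so these lists overlap. Dppa3, which marks primordial germ cells too, fell after PD03 removal and was not called after CHIRON removal.

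Among the enzymes of DNA methylation and its removal, the mRNA of Uhrf1, which Dppa3 protein holds in check, was at 0.05 ± 0.04 and −0.02 ± 0.04 at 12 h after PD03 removal and that of Dnmt1, the maintenance methyltransferase, at −0.01 ± 0.04 on both substrates, neither called. Tet1 and Tet3, which oxidise methylated cytosine, rose on both substrates (0.16 ± 0.05 and 0.21 ± 0.05 for Tet1, 0.39 ± 0.14 and 0.42 ± 0.13 for Tet3), and Tet2 fell on soft hydrogels (−0.14 ± 0.05). So 2 of 5 rose and 1 fell on soft, and 2 rose and 0 fell on stiff hydrogels, with medians of 0.051 and −0.01, beside 14.1% and 18.5% of all genes that rose and 15.3% and 19.9% that fell. After CHIRON removal Uhrf1 fell on both substrates (−0.31 ± 0.08 and −0.28 ± 0.08). Tet3 rose on both (0.56 ± 0.12 and 0.61 ± 0.12) and Tet2 rose on soft hydrogels (0.39 ± 0.11). The list medians were 0.386 and 0.273. There, 9.18% and 8.46% of all genes rose and 8.63% and 8.33% fell.

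Of the genes beside Dppa3 on chromosome 6, 6 were tested after PD03 removal. Of these, 2 fell on soft (Nanog and Slc2a3) and 4 on stiff hydrogels (with Gdf3 and Necap1), 0 rose, 15.3% and 19.9% of all genes fell, and the medians were −0.129 and −0.253. The glucose transporter gene Slc2a3 was at −0.22 ± 0.04 and −0.30 ± 0.04. After CHIRON removal 2 of 7 rose on each substrate (Nanog and Foxj2) and 0 fell, beside 9.18% and 8.46% of all genes that rose, with medians of 0.107 and 0.211. Beside Dppa2 and Dppa4 on chromosome 16, 2 genes were tested: Morc1, a germline silencing factor, was at −0.04 ± 0.04 and 0.03 ± 0.04 after PD03 removal and rose after CHIRON removal (0.26 ± 0.07 and 0.28 ± 0.07), and Dzip3 fell on soft hydrogels after both removals (−0.17 ± 0.06 and −0.47 ± 0.11), with list medians of −0.102 and −0.038 after PD03 removal and −0.108 and 0.02 after CHIRON removal.

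Of 14 naive pluripotency genes, a list taken from the study and so no independent evidence of a direction, 7 fell on both substrates and 2 rose on soft and 3 on stiff hydrogels at 12 h after PD03 removal, with medians of −0.121 and −0.138. Of all genes 15.3% and 19.9% fell and 14.1% and 18.5% rose, so that the share of the list that rose is near that of all genes. The largest fall among them was that of Fbxo15, at −0.67 ± 0.04 and −0.83 ± 0.04, against −1.40 and −1.59 for Dppa3. After CHIRON removal 4 rose and 6 fell on soft and 4 rose and 5 fell on stiff hydrogels, with medians of −0.04 and 0.014. Beside them, 9.18% and 8.46% of all genes rose and 8.63% and 8.33% fell. Tfcp2l1, a LIF-responsive naive factor, fell after either removal, at −0.66 ± 0.08 and −0.65 ± 0.08 in the second.

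**Figure D5:**
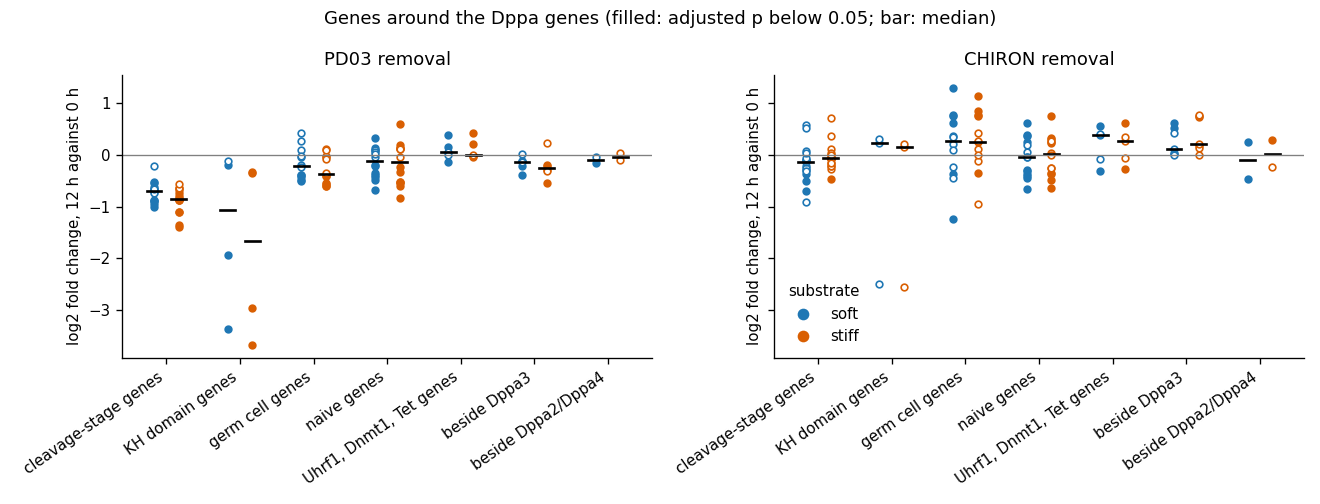
Log2 fold change at 12 h against 0 h of the genes in each list (1 point per gene), after removal of PD03 (left) or CHIRON (right), with colour for the substrate, filled points for an adjusted p below 0.05 and a bar at the median. The cleavage-stage list lies below 0 after PD03 removal, with medians of −0.695 and −0.856. After CHIRON removal its medians are −0.132 and −0.065, with single genes from −0.92 (Tdpoz4, soft) to 0.72 (Duxf3, stiff). The 2 lowest KH domain points of each substrate in the left panel are Khdc1a and Khdc1c.

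Across the 12 libraries of PD03 removal, the genes whose log2 CPM followed each member most closely were, by Pearson's r, Itpka, Myh13, Lima1, Chm and Spic for Dppa3 (r = 0.978 to 0.99), Acaa2, Tbca, Fam25c, Adsl and Ndufa10 for Dppa5a (0.974 to 0.987), S1pr2, Bcl3, Etv4, Pigv and Ltbp4 for Dppa4 (0.968 to 0.976) and Spry1, Pmaip1, Trib1, Dact2 and Nrp2 for Dppa2 (0.931 to 0.975). Spry1 and Dact2 had r = −0.732 and −0.892 with Dppa2 over the 11 libraries of CHIRON removal, and Etv4 −0.433 with Dppa4. Acaa2 had r = 0.841 with Dppa5a there, but Adsl and Ndufa10 −0.847 and −0.81, and Bcl3 had 0.729 with Dppa4. Across the libraries of CHIRON removal the closest genes were Hist1h1a, Szrd1, Tle4, Tunar and Sh3bp4 for Dppa2 (0.953 to 0.964), Exoc5, Dach2, Fastkd5, Ikzf2 and Gtf3c5 for Dppa3 (0.808 to 0.882), AU022751, Pex14, Psmd8, Fmr1nb and Lrwd1 for Dppa4 (0.894 to 0.959) and Pde4d, Gng3, Plekhb1 and Leprotl1 for Dppa5a (0.97 to 0.986). Of these, Exoc5 had r = 0.883 with Dppa3, and Pde4d 0.751 with Dppa5a, in the PD03 experiment, while Gtf3c5 and Fastkd5 had −0.828 and −0.817 with Dppa3 and Fmr1nb −0.8 with Dppa4. These values describe libraries of a shared time course and were chosen as the highest of all genes tested.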

How the data were processed

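RNA-seq counts of 24 libraries were deposited by the authors and 23 entered the tests. Per the labels and the study's methods, libraries were made with RiboZero and Nextflex kits, and the authors trimmed reads with Trim Galore, aligned them to GRCm38/mm10 with TopHat2 2.1.0 and counted reads per gene with featureCounts 1.5.0, with no normalisation; strand setting and treatment of reads with several alignments are not given in the sources used here. In the counts of PD03 removal, 15 identifiers are only digits, 23 lines were empty, and 12 columns of other samples were not used. Genes were matched to GENCODE M21 (34853 and 48349 genes) and 19317 and 21695 protein-coding genes kept, as in the study.

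Counts were normalised by TMM, filtered with filterByExpr (minimum count 10, total 15) and tested with edgeR 4.0.16's quasi-likelihood test over the 6 groups of an experiment, or over both experiments for the difference of responses, with Benjamini-Hochberg adjustment over all genes tested and a threshold of 0.05. The library left out is one the study also discarded. SE is the log2 fold change divided by the square root of F. The tests were checked on simulated counts. CPM uses TMM library sizes, and log2 CPM a prior count of 2.

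Copies were found with blastn (BLAST 2.17.0, at least 90% identity over 100 bases of a transcript), a rule chosen after seeing the data. The members, lists and comparisons were chosen with earlier results of these data known. The 4 genes are named in every comparison; of each list, genes with the smallest adjusted p and those that account for small counts are named, up to 3 by the rule, and Uhrf1, Dnmt1, Khdc3 and others beyond it were added after their values were seen. For likeness, the 5 genes of highest r are given, except 1 that is not reported here. Alternatives were DESeq2 1.42.0, its size factors in edgeR, no filter, all genes, only the groups compared, a replicate block, each library left out, all 12 libraries of CHIRON removal, and copies added. Replicate numbers did not pair libraries (correlation of deviations −0.0523 to 0.112 and −0.109 to 0.0713 over pairs of groups), and the counts of paired replicates differed beyond counting error (chi-square over its degrees of freedom, 2.24 to 19.7). The promoters and proteins of the 4 genes were not analysed here.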

Additional observations from a re-analysis of the deposited data

Results flagged for a closer look

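Each of the 5 values below is a difference between the 12 h responses to the 2 removals (PD03 minus CHIRON, log2 scale), with an adjusted p below 0.05 in edgeR's quasi-likelihood test of the difference itself. Dppa3 differed by −1.25 on soft and −1.66 on stiff hydrogels, falling after PD03 removal and not called after CHIRON removal. Dppa5a differed by −0.649 on soft and −0.77 on stiff hydrogels and moved in opposite directions. Dppa4 differed by 0.361 on stiff hydrogels. The 2 experiments also differed in the share of counts on near-identical copies, and its part in these differences was not tested. Adding the copies to the genes left all 5 past the threshold. Within the PD03 experiment the copies held a similar share in every library, so this fit could change those responses little. Dppa4 was not called in DESeq2, with all genes tested, with a replicate block or without any 1 of 7 libraries, and Dppa3 on soft hydrogels was not called without soft 12 h replicate 1 of CHIRON removal (adjusted p = 0.070, edgeR). With the discarded library put back, the values of Dppa3 alone were called.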

How the results depend on the processing

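Scaling with DESeq2's size factors changed no direction or call of the 80 tests of the 4 genes. DESeq2 left 76 as they were and took 3 out of the calls, and gave no adjusted p for Dppa3 between soft and stiff hydrogels 2 h after PD03 removal. Every value that changed sign was uncalled: with only the groups compared, Dppa2 CHIRON removal 2 h against 0 h soft 0.0058. With the replicate block, Dppa3 CHIRON removal response at 2 h soft minus stiff 0.013. With the discarded library put back, Dppa2 CHIRON removal 2 h against 0 h soft 0.0014, Dppa2 CHIRON removal 2 h against 0 h stiff −0.68, Dppa5a CHIRON removal 2 h against 0 h stiff −0.84, Dppa2 CHIRON removal soft against stiff 2 h 0.55, Dppa5a CHIRON removal soft against stiff 2 h 0.74, Dppa2 CHIRON removal response at 2 h soft minus stiff 0.68, Dppa3 CHIRON removal response at 2 h soft minus stiff 0.052, Dppa5a CHIRON removal response at 2 h soft minus stiff 0.70. With the copies added, Dppa4 PD03 removal soft against stiff 2 h −0.018, Dppa3 CHIRON removal response at 2 h soft minus stiff 0.081 (log2 fold changes). The number of the 4 genes called at 2 h after PD03 removal on soft hydrogels was 0 in DESeq2 and with all genes, and 0 to 1 over left-out libraries, and on stiff hydrogels it was 2 with the copies added. With the discarded library put back it was 0 at 12 h after CHIRON removal on either substrate, and 1 for the difference of responses on either, and left-out libraries gave 0 to 2 on soft, 1 to 2 on stiff, and 1 to 3 and 2 to 3 for the difference. Leaving out 1 library at a time turned the sign of these uncalled log2 fold changes, with ranges in parentheses: Dppa3 PD03 removal 2 h against 0 h soft (−0.40 to 0.049), Dppa5a PD03 removal 2 h against 0 h soft (−0.0019 to 0.11), Dppa5a PD03 removal soft against stiff 0 h (−0.14 to 0.011), Dppa5a PD03 removal soft against stiff 12 h (−0.036 to 0.10), Dppa4 PD03 removal soft against stiff 2 h (−0.064 to 0.14), Dppa4 PD03 removal 2 h against 0 h stiff (−0.012 to 0.19), Dppa2 CHIRON removal 2 h against 0 h soft (−0.12 to 0.11), Dppa3 CHIRON removal 2 h against 0 h soft (−0.37 to 0.22), Dppa4 CHIRON removal 2 h against 0 h soft (−0.25 to 0.086), Dppa3 CHIRON removal 12 h against 0 h soft (−0.39 to 0.18), Dppa4 CHIRON removal 12 h against 0 h soft (−0.0044 to 0.17), Dppa3 CHIRON removal soft against stiff 0 h (−0.073 to 0.53), Dppa4 CHIRON removal soft against stiff 0 h (−0.0498 to 0.0021), Dppa5a CHIRON removal soft against stiff 0 h (−0.015 to 0.084), Dppa3 CHIRON removal response at 2 h soft minus stiff (−0.29 to 0.31), Dppa4 CHIRON removal response at 2 h soft minus stiff (−0.076 to 0.26), Dppa2 CHIRON removal response at 12 h soft minus stiff (−0.12 to 0.073), Dppa3 CHIRON removal response at 12 h soft minus stiff (−0.48 to 0.12), Dppa4 CHIRON removal response at 12 h soft minus stiff (−0.19 to 0.083), Dppa5a CHIRON removal response at 12 h soft minus stiff (−0.095 to 0.029), Dppa3 CHIRON removal 2 h against 0 h stiff (−0.32 to 0.17), Dppa3 CHIRON removal 12 h against 0 h stiff (−0.16 to 0.35), Dppa4 CHIRON removal 12 h against 0 h stiff (−8.3e-05 to 0.27), Dppa4 CHIRON removal soft against stiff 2 h (−0.099 to 0.24), Dppa3 CHIRON removal soft against stiff 12 h (−0.14 to 0.17), Dppa4 CHIRON removal soft against stiff 12 h (−0.21 to 0.065), Dppa5a CHIRON removal soft against stiff 12 h (−0.054 to 0.067). Replicate numbers did not pair the libraries. With the replicate block the difference of responses for Dppa4 on stiff hydrogels had an adjusted p of 0.066 (edgeR), and genes called at 2 h after CHIRON removal went from 33 to 21 on soft and from 15 to 4 on stiff hydrogels. Counts of all genes called moved by over 1.5 times as follows. With no filter, PD03 removal gave 398 instead of 263 (2 h soft), 30, 68 and 185 instead of 4, 18 and 103 (soft against stiff at 0, 2 and 12 h) and 6 and 17 instead of 1 and 0 (responses), and CHIRON removal 144 and 89 instead of 33 and 15 (2 h soft and stiff) and 17, 54, 15, 14 and 7 instead of 0. DESeq2 gave 2 instead of 4 (PD03, soft against stiff, 0 h) and 23 instead of 15 (CHIRON, 2 h stiff), all genes 0 and 8, and only the groups compared 175 instead of 103 (PD03, soft against stiff, 12 h) and, for CHIRON, 0 instead of 15 (2 h stiff) and 30 instead of 0 (soft against stiff, 2 h). With the discarded library, 33, 15, 2603 and 2455 became 1, 0, 457 and 461, and 3090 and 3467 became 941 and 1220. Over left-out libraries the counts after PD03 removal were 138 to 152 instead of 263 and 207 to 274 instead of 366 (2 h soft and stiff), 2594 to 2933 instead of 3946 and 3704 to 4126 instead of 5157 (12 h), and 0 to 2, 5 to 13 and 12 to 32 instead of 4, 18 and 103 (soft against stiff), with 0 to 2 and 0 to 3 for the responses. After CHIRON removal they were 8 to 17 instead of 33 and 5 to 29 instead of 15 (2 h), 1376 to 1821 instead of 2603 and 1295 to 1925 instead of 2455 (12 h), and 0 to 12 instead of 0 for soft against stiff at 0 h and 0 to 11 and 0 to 10 for the responses. The background shares set beside the 4 genes move with these counts. The cause of these changes was not tested. Dppa3 after CHIRON removal, with 33 to 74 counts a library, is the value most limited by depth. The promoter search planned for the 4 genes was not run.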
